A study of Homo sapiens with 8 samples.

Results

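The adducin and spectrin membrane skeleton genes were followed across Jurkat cells that differed in CBAP. The 8 members were ADD1, ADD2, ADD3, SPTAN1, SPTBN1, EPB41, EZR and MSN, taken by symbol from a table of 13453 genes. ADD2 was chosen by its values, because it was lower in every CBAP-deficient library, so its levels are a description with no test. The other 7 members were listed as parts of the same skeleton or its ERM relatives, with earlier results of these data known, and were tested.

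RNA was sequenced from 8 libraries of Jurkat, an established human T-cell acute lymphoblastic leukemia (T-ALL) line, with 2 libraries in each of 4 conditions. The shRNA set held sh-Ctrl cells, which carry a non-targeting lentiviral shRNA, and CBAP knockdown cells, which carry an shRNA against CBAP, both selected with puromycin. The CRISPR set was built on CBAP knockout cells derived as single-cell clones after Cas9 cutting, so both its conditions carry the knockout. Its CBAP-reconstituted cells re-express CBAP as a CBAP-GFP fusion, and its CBAP knockout cells express GFP. The sh-Ctrl and CBAP-reconstituted libraries form the CBAP-expressing class, and the knockdown and knockout libraries the CBAP-deficient class. No unedited control of the CRISPR set was analysed here. The labels do not say that the 2 libraries of a condition came from separate cultures, so p-values measure the spread between these libraries, which may be technical. FPKM is a fragment number scaled to exon length and to the mapped fragments of the library, and the depth behind each value is unknown. In such bulk RNA, a lower level in every cell and fewer cells with the transcript cannot be told apart.

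CBAP is encoded by TMEM102 (chr17:7338754-7340998, plus strand, GRCh37). Its FPKM was 4.07 and 4.74 in sh-Ctrl against 2.69 and 2.89 in CBAP knockdown, and it was listed at 0 in all 4 CRISPR-set libraries. The target gene therefore checked the shRNA labels but not the libraries labelled CBAP-reconstituted, and every direction within the CRISPR set below rests on those labels. Each library had 606 to 1256 genes at an exact 0, of which 77 to 148 reached 20 FPKM or more elsewhere, so a 0 is given only as a listed 0. All 9 T cell markers were in the table, with summed FPKM of 1477 to 2386 per library, and their mean sum was 2165 in CBAP knockout, 1763 in CBAP knockdown, 1661 in sh-Ctrl and 1481 in CBAP-reconstituted cells. The sums hide single markers. At an adjusted p under 0.05 (limma), 5 of 9 (CD2, CD3E, CD7, CD28 and ZAP70) were higher in the knockout. This was against the libraries labelled CBAP-reconstituted, with 0 lower, beside 23.9% of all tested genes higher and 25.9% lower. Within the shRNA set 1 (CD2) was higher in the knockdown and 2 (LCK and ZAP70) lower, beside 3.62% and 8.70% of all tested genes. CD28 had 2.93 and 2.59 FPKM in the reconstituted libraries and 24.1 to 37.5 in all others, CD2 had 10.97 and 10.28 against 83.7 and 75.9 in CBAP knockout, and CD3E reached 1022 in knockout replicate 2 against 364 to 530 elsewhere. Erythroid markers, from the cells in which this skeleton is best known, were near absent. Of 8, 3 were in the table (HBA1, HBA2 and AHSP), with summed FPKM of 0 to 6.56. No myeloid marker of 5 was in the table, and of 4 B cell markers CD79A was, at 0.73 to 22.5 FPKM. CD79A was lowest in the libraries labelled CBAP-reconstituted (mean 0.909), against 9.76 in CBAP knockout, 14.4 in CBAP knockdown and 18.5 in sh-Ctrl cells. The part of these markers in the results below was not tested.

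The membrane skeleton is a lattice under the plasma membrane in which long spectrin tetramers, built of alpha and beta chains, are tied together at short actin filaments. Adducin caps the fast-growing end of actin and recruits spectrin to it, and works as a heteromer in which alpha-adducin (ADD1) pairs with beta-adducin (ADD2) or gamma-adducin (ADD3). The protein encoded by EPB41 strengthens the spectrin-actin junction and links it to membrane glycoproteins. Ezrin (EZR) and moesin (MSN) belong to the ERM family, which shares the FERM domain of the EPB41 product and links cortical actin to membrane proteins such as adhesion receptors. Beta-adducin is best known from red cells and brain, whereas alpha- and gamma-adducin are widespread. Moesin is the main ERM protein of lymphocytes.

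The promoters of the 3 adducin genes are shown because the products of these genes assemble together while their levels followed different patterns. The stretch given is the 250 bases before the RefSeq gene start, each found at 1 place in GRCh37, with matches to the searched motifs in capitals. The windows are chr4:2845321-2845570 on the plus strand for ADD1, chr2:70995333-70995582 on the minus strand for ADD2 and chr10:111755881-111756130 on the plus strand for ADD3. Which start the Jurkat cells use was not analysed here.
ADD1: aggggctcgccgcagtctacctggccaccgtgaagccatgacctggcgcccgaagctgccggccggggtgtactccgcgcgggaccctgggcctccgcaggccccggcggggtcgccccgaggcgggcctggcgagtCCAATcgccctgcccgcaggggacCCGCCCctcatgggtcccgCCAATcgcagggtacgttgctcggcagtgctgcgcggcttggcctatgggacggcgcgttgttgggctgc
ADD2: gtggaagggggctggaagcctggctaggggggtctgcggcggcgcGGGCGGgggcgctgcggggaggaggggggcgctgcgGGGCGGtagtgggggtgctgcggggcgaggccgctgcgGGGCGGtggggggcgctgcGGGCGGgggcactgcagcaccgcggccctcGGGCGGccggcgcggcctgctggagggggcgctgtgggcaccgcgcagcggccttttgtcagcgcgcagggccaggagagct
ADD3: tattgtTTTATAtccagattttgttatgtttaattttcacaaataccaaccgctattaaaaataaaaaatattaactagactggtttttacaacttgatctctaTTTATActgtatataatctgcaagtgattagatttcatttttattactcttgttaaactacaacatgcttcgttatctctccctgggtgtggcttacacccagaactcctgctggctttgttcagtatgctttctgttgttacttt

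The motifs searched on both strands were the GC box GGGCGG, the CCAAT box CCAAT, the TATA box TATAAA and the E box CACGTG. The ADD2 window held 5 GC boxes and 31 CG pairs in a sequence of 81.2% GC. The ADD1 window held 1 GC box and 2 CCAAT boxes in 74.4% GC. The ADD3 window differed from both, with 30.8% GC, 2 CG pairs, 2 matches to the TATA box on the opposite strand and no GC box. Among the same windows of 27305 genes, 42.3% held a GC box, 33.0% a CCAAT box, 11.1% a TATA box and 6.49% an E box, and the median GC content was 58% with quartiles of 46% and 67.6%. The matches describe these letters in these windows, and no value here ties them to the levels that follow.

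ADD2 was the least abundant member and the one that separated the CBAP classes most widely. The gene lies at chr2:70834750-70995357 on the minus strand of GRCh37. Its FPKM was 8.50 and 7.66 in sh-Ctrl, 2.86 and 3.97 in CBAP knockdown, 9.56 and 8.66 in libraries labelled CBAP-reconstituted, and 1.71 and 1.80 in CBAP knockout. The 4 CBAP-deficient libraries were all below the 4 CBAP-expressing ones, with 3.97 as the highest of the first and 7.66 as the lowest of the second. The class means were 2.59 ± 1.06 and 8.60 ± 0.780 FPKM (SD, n = 4 each). Such a gap with the deficient class lower was found in 10.3% of the 11427 genes kept for testing (mean FPKM 1 or higher), and since the gap chose ADD2, nothing is read from it. The change was -1.46 on the log2(FPKM + 1) scale over all libraries, -1.05 within the shRNA set and -1.87 within the CRISPR set. This scale understates changes of low genes, and with a pseudocount of 0.1 in place of 1 the same changes were -1.77, -1.23 and -2.31. From low to high, the order of the conditions was CBAP knockout, CBAP knockdown, sh-Ctrl and CBAP-reconstituted, with no overlap between neighbours.

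ADD1, the shared partner of the other adducins, had its levels ordered by set rather than by CBAP class. The gene lies at chr4:2845571-2931803 on the plus strand. Its FPKM was 47.5 and 49.0 in sh-Ctrl, 44.8 in both CBAP knockdown libraries, 57.0 and 58.0 in libraries labelled CBAP-reconstituted, and 62.8 and 62.7 in CBAP knockout. Every CRISPR-set library was above every shRNA-set library, and within each set the 2 conditions did not overlap but stood in opposite order. Of all tested genes, 42.8% were called higher in the CRISPR set (limma, adjusted p under 0.05). The change was -0.10 within the shRNA set (standard error 0.043, adjusted p = 0.170) and 0.12 within the CRISPR set (standard error 0.043, adjusted p = 0.0557), from limma, adjusted by Benjamini-Hochberg over the 11427 genes, as for every adjusted p below. Neither change passed the threshold of 0.05, whereas their difference did, at -0.23 (standard error 0.060, adjusted p = 0.0349). The difference was -0.34 (adjusted p = 0.0121) under quantile normalization and -0.07 (adjusted p = 0.471) with every library scaled to its median gene. The CRISPR-set change was 0.31 (adjusted p = 0.0031) and 0.022 (adjusted p = 0.762) under the same scalings, and it also passed with a pseudocount of 0.1, with no filter, or without any 1 of the shRNA-set libraries (adjusted p of 0.0315 to 0.0476). The call on the difference was also lost without sh-Ctrl replicate 2 and without any 1 of the 4 CRISPR-set libraries, with adjusted p of 0.0542 to 0.138, and with the replicate number as a block, without the trend or with stricter filters (adjusted p of 0.0564 to 0.0622).

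ADD3, the other partner of ADD1, had higher values within each set where ADD2 had lower ones, without passing the threshold. The gene lies at chr10:111756126-111895323 on the plus strand. Its FPKM was 28.2 and 38.7 in sh-Ctrl, 69.2 and 48.3 in CBAP knockdown, 50.9 and 51.0 in libraries labelled CBAP-reconstituted, and 66.6 and 67.0 in CBAP knockout. Within each set the CBAP-deficient libraries were higher, but the classes overlapped, because knockdown replicate 2 was below both reconstituted libraries. Over all 8 libraries the change was 0.59 (standard error 0.21, adjusted p = 0.174). Within the shRNA set it was 0.79 (standard error 0.20, adjusted p = 0.0615), and within the CRISPR set 0.39 (standard error 0.20, adjusted p = 0.167). The shRNA-set change passed the threshold when genes with a listed 0 were left out (adjusted p = 0.0287). It also passed when FPKM of at least 1 was required in every library (adjusted p = 0.0283). In the other alternatives that kept every library it did not pass, with an adjusted p as high as 0.105 with the replicate number as a block. With 1 library left out the change ran from 0.54 without knockdown replicate 1 to 1.04 without knockdown replicate 2.

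**Figure D1:**
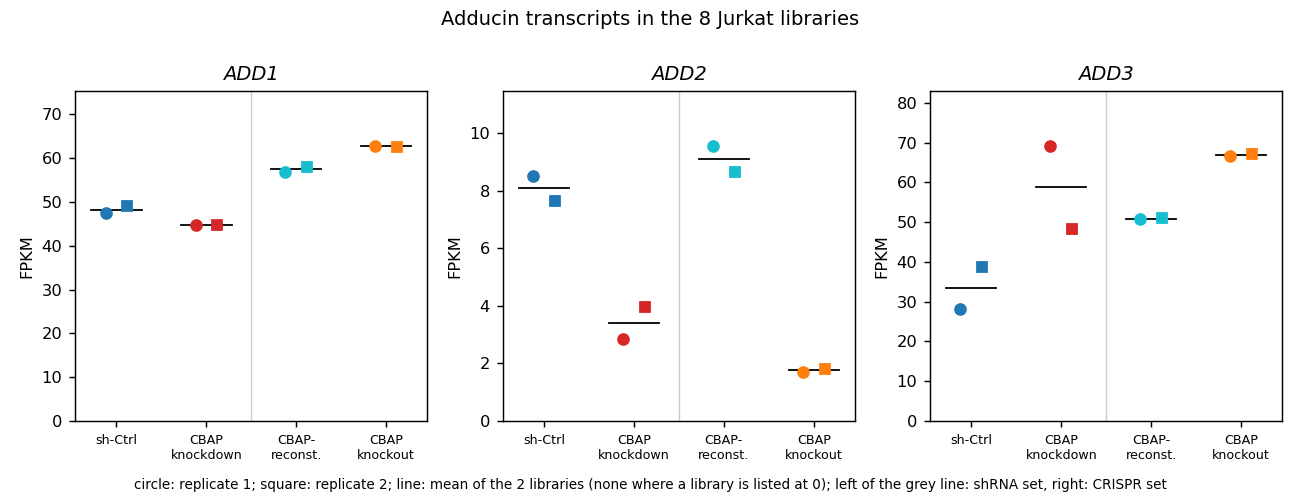
FPKM of ADD1, ADD2 and ADD3 (vertical axes, linear from 0) in the 4 conditions, with a circle for replicate 1, a square for replicate 2 and a line for their mean. ADD2 lies at 7.66 or above in the CBAP-expressing conditions and at 3.97 or below in the CBAP-deficient ones, whereas ADD1 is set apart by the grey line between the shRNA and CRISPR sets.

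The makeup of the adducin transcripts is described here without a test, and the ADD3 shares also hold the chosen ADD2 in their sum. ADD2 made up 10.1% and 8.04% of the summed adducin FPKM in sh-Ctrl, 2.45% and 4.09% in CBAP knockdown, 8.15% and 7.37% in libraries labelled CBAP-reconstituted, and 1.30% and 1.37% in CBAP knockout. These shares follow from the choice of ADD2 and are given as a description. ADD3 made up 33.5% and 40.6% in sh-Ctrl and 43.3% in both CBAP-reconstituted libraries, against 59.2% and 49.8% in CBAP knockdown and 50.8% and 51.0% in CBAP knockout. ADD3 was thus below ADD1 in the 4 CBAP-expressing libraries, with ratios of ADD3 to ADD1 FPKM of 0.593 to 0.893, and above it in the 4 CBAP-deficient ones, with ratios of 1.06 to 1.54. How often other pairs of genes part the classes in this way was not analysed. Within each set, the summed adducin FPKM of the CBAP-deficient libraries was not below that of the CBAP-expressing ones. It was 84.2 and 95.3 in sh-Ctrl, 117 and 97.1 in CBAP knockdown, 117 and 118 in CBAP-reconstituted, and 131 in both CBAP knockout libraries.

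**Figure D2:**
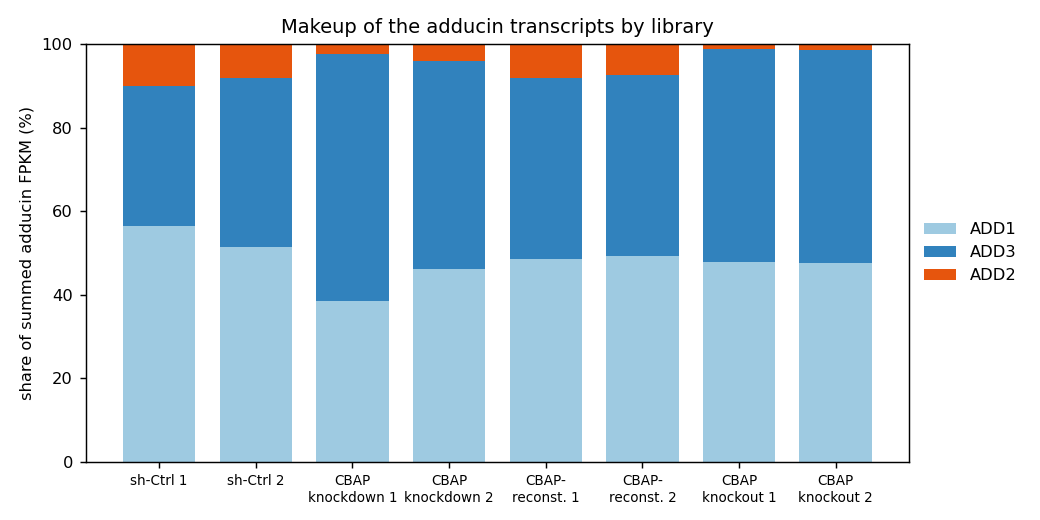
Share of ADD1, ADD3 and ADD2 in the summed adducin FPKM (vertical axis, percent) in each of the 8 libraries. The ADD2 share at the top of the bars is 7.37% to 10.1% in the CBAP-expressing libraries and 1.30% to 4.09% in the CBAP-deficient ones, where ADD3 takes at least 49.8%.

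The alpha-spectrin gene SPTAN1 was lower in the knockout cells. It encodes the alpha chain of nonerythroid spectrin and lies at chr9:131314837-131395941 on the plus strand. Its FPKM was 34.8 and 37.4 in sh-Ctrl, 34.7 and 31.7 in CBAP knockdown, 41.1 and 40.6 in libraries labelled CBAP-reconstituted, and 32.5 and 31.9 in CBAP knockout. The classes did not overlap, although the lowest CBAP-expressing library (34.80) and the highest CBAP-deficient library (34.70) nearly met. A gap with the deficient class lower was found in 10.3% of all tested genes. SPTAN1 fell within the CRISPR set, by a change of -0.33 (standard error 0.064, adjusted p = 0.0080), a ratio of 0.794 on the FPKM + 1 scale. Within the shRNA set the change was -0.12 (standard error 0.064, adjusted p = 0.281), and over all libraries it was -0.23 (standard error 0.081, adjusted p = 0.178). The difference between the sets was 0.22 with an adjusted p of 0.119. The CRISPR-set call was lost without reconstituted replicate 1 (adjusted p = 0.0570) and under quantile normalization (-0.22, adjusted p = 0.0697).

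SPTBN1, which encodes the beta chain that pairs with SPTAN1, carried a listed 0 that decided its values in the shRNA set. It lies at chr2:54683454-54898583 on the plus strand. Its FPKM was 52.3 and a listed 0 in sh-Ctrl, 53.9 and 48.3 in CBAP knockdown, 65.9 and 63.1 in libraries labelled CBAP-reconstituted, and 41.1 and 41.9 in CBAP knockout. The knockout libraries were the lowest of the 7 with a value above 0, and the reconstituted libraries the highest. With the listed 0 kept, the change was 2.83 within the shRNA set (standard error 1.70, adjusted p = 0.320) and -0.62 within the CRISPR set (adjusted p = 0.793). Without sh-Ctrl replicate 2 these became -0.04 (adjusted p = 0.813) and -0.62 (adjusted p = 0.0026), the difference between the sets was 0.59 (adjusted p = 0.0184), and the change over all libraries turned from 1.10 to -0.38. The ratio of SPTAN1 to SPTBN1 FPKM was 0.665 in the sh-Ctrl library with a value, 0.624 to 0.657 in the knockdown and reconstituted libraries, and 0.791 and 0.763 in the knockout libraries.

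EPB41 varied least of the members relative to its mean. It lies at chr1:29213603-29446558 on the plus strand. Its FPKM was 37.8 and 35.2 in sh-Ctrl, 34.8 and 38.2 in CBAP knockdown, 42.4 and 42.1 in libraries labelled CBAP-reconstituted, and 36.0 and 36.7 in CBAP knockout. The reconstituted libraries stood above all others, and the remaining 3 conditions overlapped. EPB41 fell within the CRISPR set by a change of -0.21 (standard error 0.064, adjusted p = 0.0381), and the change within the shRNA set was -0.0012 (standard error 0.064). The difference between the sets, 0.21, had an adjusted p of 0.128, but it passed with scaling to the median gene (0.36, adjusted p = 0.0098) and without knockdown replicate 1 (0.28, adjusted p = 0.0413). The CRISPR-set call was lost without any 1 of the 4 libraries of that set (adjusted p of 0.115 to 0.156), with the replicate number as a block (adjusted p = 0.0635) and under quantile normalization (-0.077, adjusted p = 0.285), and under scaling to the median gene the change was -0.31 (adjusted p = 0.0031).

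Of the ERM genes, MSN was higher in the knockout cells and EZR followed the set. MSN lies at chrX:64808257-64961793 on the plus strand. Its FPKM was 164 and 198 in sh-Ctrl, 257 and 198 in CBAP knockdown, 228 and 229 in libraries labelled CBAP-reconstituted, and 332 and 373 in CBAP knockout. The knockout libraries were the highest, whereas the knockdown libraries spanned the range from the upper sh-Ctrl library to above the reconstituted ones. MSN rose within the CRISPR set by 0.62 (standard error 0.15, adjusted p = 0.0183), 1.54-fold on the FPKM + 1 scale. Within the shRNA set the change was 0.33 (standard error 0.15, adjusted p = 0.212), and the difference between the sets was -0.29 (standard error 0.21, adjusted p = 0.332). The shRNA-set change was 0.14 without knockdown replicate 1, 0.19 without sh-Ctrl replicate 1 and 0.51 without knockdown replicate 2, and the difference ran from -0.48 without knockdown replicate 1 to -0.11 without knockdown replicate 2 and was -0.55 under quantile normalization, with none past the threshold. The CRISPR-set call was lost without reconstituted replicate 1 or 2 or knockout replicate 2 (adjusted p of 0.0850 to 0.0869) and with scaling to the median gene (0.52, adjusted p = 0.0570), whereas quantile normalization gave 0.95 (adjusted p = 0.0078). Over all libraries the change was 0.47 (standard error 0.21, adjusted p = 0.250), and it passed with the set as a covariate (adjusted p = 0.0488).

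EZR lies at chr6:159186773-159240400 on the minus strand. Its FPKM was 53.9 and 61.4 in sh-Ctrl, 62.3 and 61.5 in CBAP knockdown, 73.9 and 73.4 in libraries labelled CBAP-reconstituted, and 67.9 and 72.4 in CBAP knockout. All 4 CRISPR-set libraries were above all 4 shRNA-set libraries. Of all tested genes, 42.8% were called higher in the CRISPR set. With every library scaled to its median gene, the EZR difference between the sets was 0.070 (adjusted p = 0.371). The change was 0.10 within the shRNA set (standard error 0.073, adjusted p = 0.386) and -0.07 within the CRISPR set (standard error 0.073, adjusted p = 0.457). MSN transcripts exceeded EZR transcripts per length in every library, with ratios of 3.03 and 3.22 in sh-Ctrl, 4.13 and 3.23 in CBAP knockdown, 3.09 and 3.12 in CBAP-reconstituted, and 4.89 and 5.16 in CBAP knockout.

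**Figure D3:**
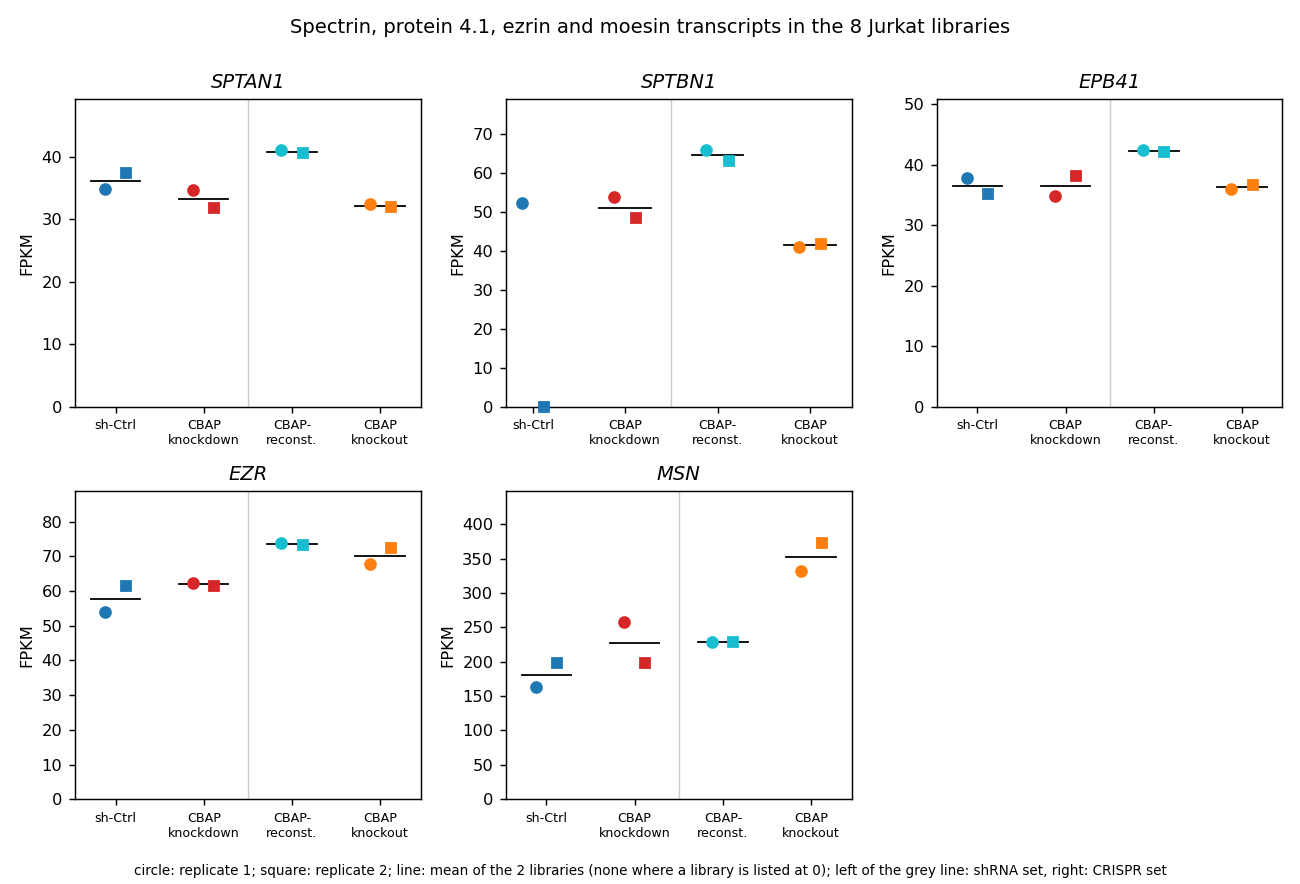
FPKM of SPTAN1, SPTBN1, EPB41, EZR and MSN (vertical axes, linear from 0) in the 4 conditions, with a circle for replicate 1, a square for replicate 2 and a line for their mean, left out where a library is listed at 0. MSN is highest in the knockout libraries at 332 and 373, and SPTBN1 shows the listed 0 in sh-Ctrl replicate 2.

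Among the members, levels per length spanned a wide range. Over the 8 libraries MSN averaged 247 ± 71.4 FPKM, EZR 65.8 ± 7.21, ADD1 53.3 ± 7.65, ADD3 52.5 ± 14.6, EPB41 37.9 ± 2.93, SPTAN1 35.6 ± 3.74 and ADD2 5.59 ± 3.33 (SD, n = 8), and SPTBN1 had 41.1 to 65.9 FPKM in the 7 libraries with a value. EZR exceeded ADD1 in each of the 8 libraries, whereas ADD3 was on either side of both, and EPB41 and SPTAN1 also changed places between libraries. MSN lay between percentiles 97.4 and 99.3 of the table's genes and ADD2 between 22.4 and 50.1. The other members lay between percentiles 78.5 and 92.9, apart from the listed 0 of SPTBN1. All 8 members passed the filter on low values. Exons of ADD3, SPTBN1 and EZR overlap antisense genes named for them, those of SPTAN1 overlap DYNC2I2, those of EPB41 overlap TMEM200B, and those of ADD2 overlap a noncoding RNA, all on the opposite strand, and the strand setting of the counting is not given in the sources used here. Reads of EZR and MSN may also be shared with the pseudogenes EZRP1 on chromosome 3 and MSNP1 on chromosome 5.

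Over all 8 libraries, CBAP deficiency gave no call among the 7 tested members. By comparison, 0.621% of all tested genes were called, 0.210% higher and 0.411% lower. At an unadjusted p under 0.05 there were 2 such members, ADD3 and SPTAN1, and 2397 of 11427 genes. This fit had no term for the set, so differences between the sets counted as spread. With the set as a covariate, 1404 of the 11427 genes were called, and 1 of the 7 members (MSN, adjusted p = 0.0488). Within the shRNA set 0 of 7 were called, against 12.3% of all genes (3.62% higher and 8.70% lower), and 1 member, ADD3, had an unadjusted p under 0.05, as had 3457 of the 11427 genes. Within the CRISPR set 3 of 7 were called, against 49.9% of all genes. MSN was higher, as were 23.9% of all genes, and SPTAN1 and EPB41 were lower, as were 25.9%. The difference between the sets was called for 1 of 7, ADD1, against 33.8% of all genes (15.5% with a positive and 18.3% with a negative difference). With scaling to the median gene the 1 member called was EPB41 in place of ADD1. These shares of members were near the background or below it. The number of members called in the CRISPR set ranged from 0 to 5 when 1 library was left out, with 0 without reconstituted replicate 1, 1 without reconstituted replicate 2 or knockout replicate 2, and 5 without either sh-Ctrl library.

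**Figure D4:**
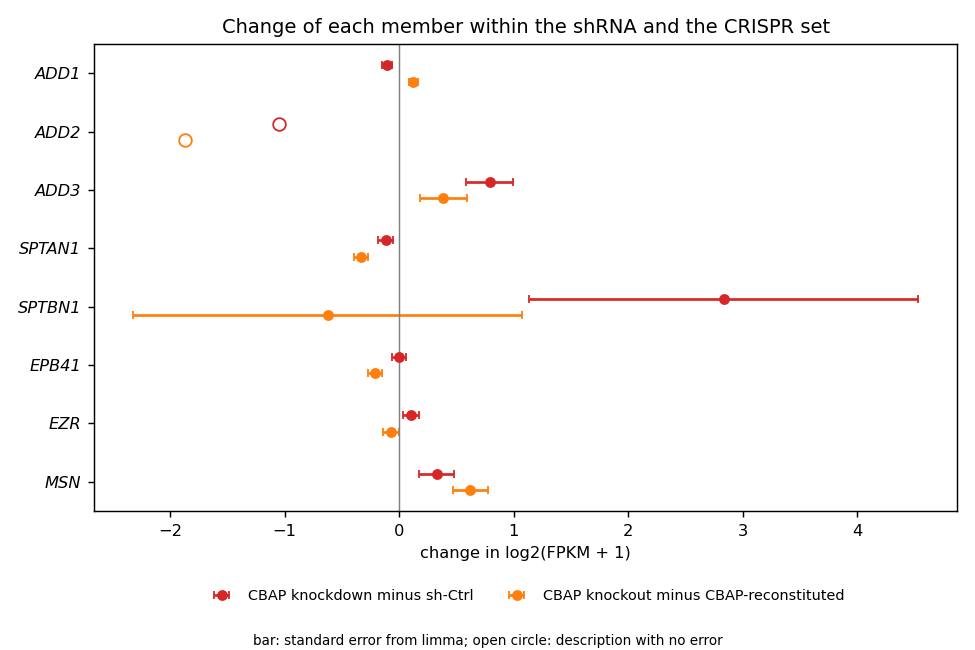
Change of each member within the shRNA set (red) and within the CRISPR set (orange) in log2(FPKM + 1) (horizontal axis), with limma standard errors as bars. ADD2 is drawn as open circles without an error because its values chose it, and the wide bars of SPTBN1 come with its listed 0 in sh-Ctrl replicate 2.

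Between the CRISPR and the shRNA set, 3 members differed. The rule read ADD2 in the same 8 libraries, so ADD2 is given here as a description too, and the other 7 members were tested. The 3 were higher in the CRISPR set, against 42.8% of all genes, and 0 were lower, against 13.1%, with 55.9% of all genes called either way. ADD1 rose by 0.36 (standard error 0.030, adjusted p = 0.00043), EZR by 0.26 (standard error 0.051, adjusted p = 0.0075) and MSN by 0.49 (standard error 0.11, adjusted p = 0.0111). The median of all tested genes was itself 0.18 higher in the CRISPR set as deposited, and 0.0024 higher after scaling to the median gene. After that scaling ADD1 still passed, at 0.17 (adjusted p = 0.0155), while EZR (0.070, adjusted p = 0.371) and MSN (0.29, adjusted p = 0.111) did not. Under quantile normalization ADD1 had 0.22 (adjusted p = 0.0032), EZR 0.12 (adjusted p = 0.0896) and MSN 0.48 (adjusted p = 0.0250). The ADD3 difference was 0.41 (standard error 0.14, adjusted p = 0.0555), and it passed with stricter filters (adjusted p of 0.0272 to 0.0283). Over the alternatives that kept every library the ADD3 difference ran from 0.21 to 0.42, with an adjusted p as high as 0.334. With 1 library left out it ran from 0.28 to 0.53. The ADD2 value was -0.26 as deposited and -0.40 with scaling to the median gene.

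The genes whose levels ran most like those of ADD2 were PCCB, SFXN1, NUP37, EHD4 and NDUFA8, with Pearson's r of 0.995, 0.995, 0.993, 0.992 and 0.991 on log2(FPKM + 1) over the 8 libraries. They are the top 5 of all tested genes, so the r is a description, and the 8 points share condition and set. PCCB, a subunit of the mitochondrial propionyl-CoA carboxylase, had 69.8 to 72.6 FPKM in CBAP-expressing and 38.3 to 52.4 in CBAP-deficient libraries. SFXN1, a mitochondrial serine carrier, had 64.3 to 68.5 against 45.9 to 55.6. NUP37, of the nuclear pore, had 52.1 to 54.5 against 38.1 to 44.5. EHD4, of endosomal membrane traffic, had 9.86 to 11.1 against 5.46 to 7.95, and NDUFA8, of respiratory complex I, had 73.8 to 78.9 against 46.7 to 58.4. In each of the 5, as in ADD2, both knockout libraries were the lowest and both knockdown libraries came next. This order follows largely from the choice of these genes by r.

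Other genes of the skeleton and its partners were read from 6 lists with 63 genes, of which 51 were in the table and 44 were tested. The lists were chosen with earlier results of these data known, so nothing is read from a share above that of all genes. Over all libraries 0 of 44 were called, beside 0.621% of all genes, and 18 fell under 0.05 before adjustment, beside 2397 of the 11427 genes. A fit with the set as covariate called 12, beside 1404 of all genes, and quantile normalization 2, beside 201. Within the shRNA set 6 were higher and 3 lower, 20.5% of the 44, and within the CRISPR set 14 were higher and 15 lower, 65.9% of the 44, beside 12.3% and 49.9% of all genes. The median change was 0.083 and 0.068, beside -0.060 and 0 for all tested genes. The shRNA-set count was 0 without either reconstituted library, 2 without either knockout library, 5 without sh-Ctrl replicate 1 and 14 without knockdown replicate 1, and the CRISPR-set count was 19 without either reconstituted library. The difference between the sets was called for 20 of the 44, or 45.5%, beside 33.8% of all genes. Without either reconstituted library or knockout replicate 1 it was called for 10 or 11, while the calls over all genes went from 3861 to between 1849 and 2543.

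Within the CRISPR set, 4 of the 6 lists had both genes that rose and genes that fell. Of all tested genes, 23.9% rose and 25.9% fell there. Of 6 tested relatives of EPB41 and the ERM genes, 0 rose and 3 fell. EPB41L2, a widely expressed relative of EPB41, fell from 29.7 and 28.4 to 11.1 and 11.3 FPKM (-1.30, adjusted p = 6.2e-05), while in the shRNA set it stayed between 26.8 and 29.9. EPB41L1, its neuronal relative, fell from 4.55 and 4.26 to 1.24 and 1.37 FPKM (-1.23, adjusted p = 0.0013). The knockout libraries stood below all other libraries at both genes.

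In the list of ankyrins and membrane anchors no ankyrin was tested. Of its 5 tested genes, 2 rose and 2 fell within the CRISPR set. GYPC, the membrane glycoprotein that the EPB41 product binds, rose from 28.7 and 31.6 to 121 and 123 FPKM (1.98, adjusted p = 0.00025). MPP1, the scaffold between them, rose from 17.7 and 16.7 to 41.8 and 36.9 FPKM (1.15, adjusted p = 0.0020). In sh-Ctrl cells GYPC had 86.9 and 68.2 and MPP1 37.3 and 31.7 FPKM, so the libraries labelled CBAP-reconstituted were the lowest of all at both genes. Of 12 tested genes of actin, tropomyosin and filament caps, 1 rose and 4 fell. TMOD2, a cap of the slow-growing filament end, rose from 3.62 and 3.67 to 7.39 and 7.19 FPKM (0.84, adjusted p = 0.0062). ACTG1, cytoplasmic gamma-actin, fell from 2167 and 2116 to 1304 and 1309 FPKM (-0.71, adjusted p = 0.0097), levels within the 1230 and 1562 of sh-Ctrl, though many actin copies share its sequence.

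Of 5 tested ligands and scaffolds of ERM proteins, 2 rose and 2 fell within the CRISPR set. ICAM3, a leukocyte adhesion receptor, fell from 44.3 and 43.1 to 16.4 and 15.8 FPKM (-1.39, adjusted p = 0.00080), against 42.5 and 47.3 in sh-Ctrl and 53.1 and 39.6 in CBAP knockdown. SLC9A3R2, a scaffold that binds ERM proteins, fell from 24.2 and 21.3 to 9.11 and 9.06 FPKM (-1.23, adjusted p = 0.00022), and fell within the shRNA set also, from 11.3 and 12.5 to 8.10 and 7.84 (-0.52, adjusted p = 0.0196). Of 15 tested kinases, phosphatases, calmodulin and calpain genes, 8 rose and 4 fell in the CRISPR set and 5 rose and 0 fell in the shRNA set. Of all tested genes, 23.9% rose and 25.9% fell in the CRISPR set and 3.62% rose and 8.70% fell in the shRNA set. PRKCB, a protein kinase C, a family that phosphorylates adducin, rose in both, from 13.4 and 12.7 to 30.8 and 28.9 FPKM (1.14, adjusted p = 0.00031) and from 26.6 and 22.9 to 33.8 and 35.3 (0.47, adjusted p = 0.0265). Of the other listed protein kinase C genes, PRKCA rose in the CRISPR set (0.59, adjusted p = 0.0071) and PRKCQ fell there (-0.41, adjusted p = 0.0014). In the shRNA set PRKCQ rose (0.27, adjusted p = 0.0269) and PRKCA did not pass (-0.42, adjusted p = 0.0637). PRKCD passed in neither set. STK10, a kinase of ERM proteins in lymphocytes, rose in the CRISPR set from 3.82 and 3.70 to 7.70 and 7.41 FPKM (0.85, adjusted p = 0.0021). The changes of these named genes differed between the sets at an adjusted p under 0.05, from 0.00033 to 0.0317. The exceptions were TMOD2 (adjusted p = 0.128) and PRKCD (adjusted p = 0.551).

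**Figure D5:**
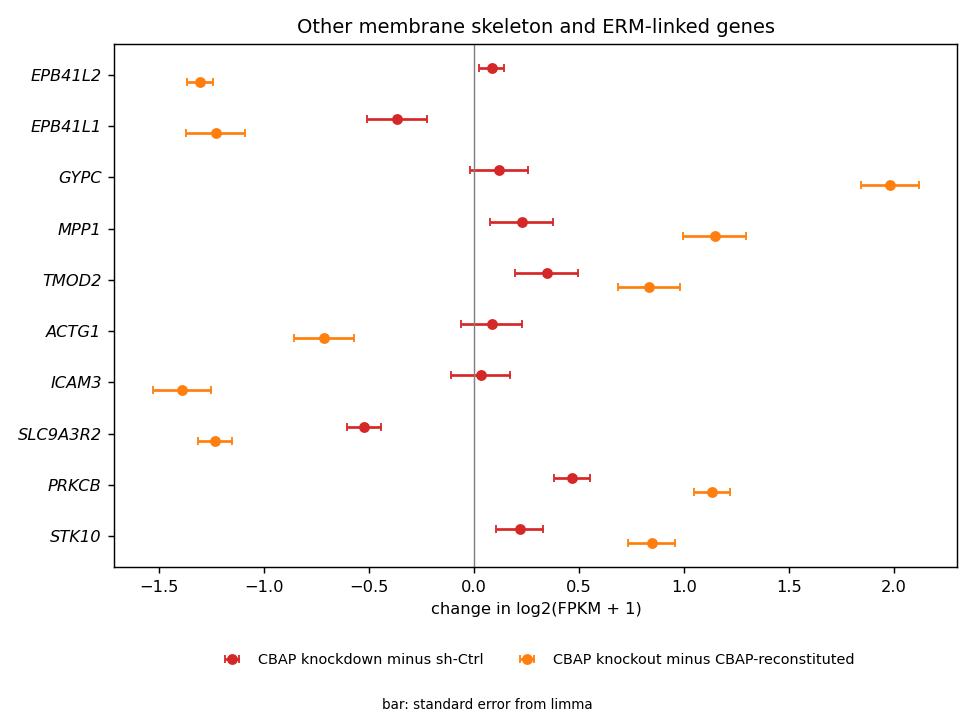
Change of the named list genes within the shRNA set (red) and the CRISPR set (orange) in log2(FPKM + 1) (horizontal axis), with limma standard errors as bars. The CRISPR-set changes run from -1.39 for ICAM3 to 1.98 for GYPC, and each is farther from 0 than the shRNA-set change of the same gene. The choice of genes by their largest called change favours this.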

How the data were processed

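RNA-seq of 8 Jurkat libraries was analysed from 1 deposited table. The authors sequenced paired-end reads, aligned them to hg19 with TopHat 2 and estimated FPKM with the cuffdiff module of Cufflinks, and the submitters' processing notes also name CASAVA 1.8 and Bowtie. The Cufflinks version, the annotation and the library scaling are not given in the sources used here. Whole reads could not be recovered from the low values, so no counting interval was computed and precision rests on 2 libraries per condition.

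Conditions were taken from the labels. The deposited FPKM was taken to log2(FPKM + 1), and the 11427 of 13453 genes whose mean FPKM was 1 or higher were tested with limma 3.58.1 (R 4.3.3, empirical Bayes with a trend), adjusted by Benjamini-Hochberg over all of them, at an adjusted p under 0.05. The 4 CBAP-deficient libraries were compared with the 4 CBAP-expressing ones without a term for the set. A model with a mean per condition gave the change within each set. It also gave the difference of these changes (shRNA set minus CRISPR set) and CRISPR set minus shRNA set. ADD2 was left untested in all of them, the last included, where a test had been planned, since the rule read all 8 of its values. The fit over the CBAP classes was also run on simulated data with no difference between the sets and with large planted changes. Nothing is read from that run for the data here. Summaries were made in Python 3.11.15.

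The members and the gene lists were chosen with earlier results of these data known. Named are the members, TMEM102, the 5 genes with the highest r with ADD2 and, for each list, up to 3 called genes with the largest change over all libraries or, where there was none, up to 2 with the largest called change within a set. A further gene fixed by this rule is not reported here. CD79A and single T cell markers were named because their levels differed between conditions, and the other protein kinase C genes to stand beside PRKCB. Gene spans are from GENCODE 44 lifted to GRCh37, and promoter sequences from RefSeq (GRCh38.p14), located in GRCh37 by exact match. Pseudocounts, filters, scalings, the trend, the treatment of listed zeros, the replicate block, the set covariate and single libraries left out were tried as alternatives. Proteins and the study's other assays were not analysed here.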

Additional observations from a re-analysis of the deposited data

Results flagged for a closer look

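The change of ADD1 differed between the sets by test, with -0.23 on the log2(FPKM + 1) scale for the shRNA set minus the CRISPR set (adjusted p = 0.0349, limma). ADD1 was lower in both knockdown libraries than in both sh-Ctrl libraries and higher in both knockout libraries than in both reconstituted libraries. Scaling to the median gene moved the median difference of all tested genes from -0.053 to 0.084 and that of ADD1 to -0.074, and quantile normalization gave -0.34 for ADD1.

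ADD3 had 1 library far from the others of its class. Knockdown replicate 2 had 48.3 FPKM, where the other 3 CBAP-deficient libraries had 66.6 to 69.2. In all, 16 groups of 4 libraries were examined (each member in each CBAP class), of which chance alone would mark about 0.8.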

How the results depend on the processing

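With 2 libraries per condition and unknown depth, small changes of the members could not be resolved, and a change that missed the threshold is not shown to be absent. Of 86 alternative counts of members called, 64 stayed within 1.5 times of the reported count.

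Over all libraries 0 members were called, and 1 (MSN) with the set as a covariate. In the shRNA set 0 became 1 (ADD3) with FPKM of at least 1 in every library or with listed zeros left out, and ranged from 0 to 1 with 1 library left out. In the CRISPR set 3 ranged from 0 to 5 with 1 library left out. The difference between the sets, 1, became 0 with FPKM of at least 1 in every library, without the trend, with listed zeros left out and with the replicate block, and ranged from 0 to 2 with 1 library left out. Between the sets 3 became 1 (ADD1) with scaling to the median gene, and ranged from 3 to 4 with 1 library left out. The causes were not tested.

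Directions that reversed all belonged to changes that did not pass. With scaling to the median gene these were ADD1 (-0.015) and EZR (-0.0081) over all libraries, EPB41 (0.051) in the shRNA set, and SPTAN1 (-0.13) and EPB41 (-0.091) between the sets. With quantile normalization they were EPB41 (0.048) in the shRNA set, EZR (0.14) in the CRISPR set, and SPTAN1 (-0.10) and EPB41 (-0.064) between the sets. With 1 library left out, over all libraries ADD1 ranged from -0.070 to 0.090, EZR from -0.073 to 0.077 and SPTBN1 from -0.38 to 1.64, and in the shRNA set SPTBN1 ranged from -0.037 to 5.70 and EPB41 from -0.066 to 0.064.

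Over all tested genes, the 71 calls of the CBAP classes became 1404 with the set as a covariate, 201 with quantile normalization, 187 with scaling to the median gene, 108 without the filter, 11 with the replicate block, and 8 to 76 with 1 library left out. The 1408 calls in the shRNA set became 776 with the block and 306 to 2376 with 1 library left out, the 5697 in the CRISPR set 3376 to 6847, and the 3861 of the difference between the sets 1849 to 5149. Deviations of same-numbered libraries correlated between -0.063 and 0.146 across genes, so the numbers were not taken to pair the libraries. With the block the members called were 0, 0, 2, 0 and 3 in the order used above.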
